A study of Mus musculus with 9 samples.

Results

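Mmp7 and the plasminogen activator system were followed across 9 mouse expression arrays as 9 genes. These are the secreted metalloproteinase gene Mmp7, the membrane-type metalloproteinase genes Mmp14 and Mmp15, the plasminogen activator genes Plat and Plau, the urokinase receptor gene Plaur and the inhibitor genes Timp1, Timp2 and Timp3. The members were chosen by function with earlier results of these arrays known, in which Mmp7 and Plat were already seen to lie higher in tolerant than in unstimulated cells. A gene is shown by a single probe set (a group of array probes for 1 transcript), the one whose log2 mean over all arrays was highest. Of the 9 genes, 8 had a probe set of their own among the 18193 genes measured. Of these, 5 (Mmp7, Plat, Plaur, Timp1 and Timp2) reached a log2 intensity of 4 on at least 3 arrays and were tested with 9431 genes in all. Mmp14, Plau and Timp3 lay below that level on all 9 arrays, and Mmp15 was not analysed here.

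All arrays came from m-ICcl2, a line of small intestinal epithelium from C57BL/6 mouse fetuses that carries the SV40 large T antigen as a transgene, which keeps the cells dividing. The labels do not name the promoter of the transgene. Cells were left unstimulated, were exposed to LPS (lipopolysaccharide, the endotoxin of Gram-negative bacteria, here from E. coli) at 100 ng/mL for 6 h, or were exposed for 6 h and then held in medium without LPS for 90 h. The last group, tolerant in the submitters' wording, keeps that name here, and each group had 3 arrays. For unstimulated cells no length of culture is stated, and in tolerant cells the effect of longer culture and that of earlier LPS cannot be told apart. In bulk RNA, fewer cells that carry a transcript and less transcript per cell cannot be told apart either.

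Matrix metalloproteinases are zinc-dependent enzymes, made as inactive precursors, that cut matrix and cell-surface proteins. Mmp7, also called matrilysin, is the metalloproteinase of epithelium. In the mouse small intestine it is known from Paneth cells, where it activates the precursors of alpha-defensins, and it appears in injured epithelium elsewhere. Plasminogen activators convert plasminogen into plasmin, a broad serine protease: the product of Plat (tPA) acts mainly on fibrin and cell-surface complexes, and that of Plau (uPA) acts at its receptor, the product of Plaur. TIMP proteins bind metalloproteinases and block their active site.

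Values are log2 of the deposited intensity, so a difference of 1 is a doubling, and levels of different probe sets are not compared with each other. The epithelial genes Krt8, Krt18, Vil1 and Hnf4a lay at 7.53 or higher on all 9 arrays, whereas Cdh1, Krt19, Cdx1, Cdx2 and Cldn3 lay below log2 2.81, and Epcam exceeded log2 4 on tolerant arrays only. From unstimulated to tolerant cells Hnf4a fell 3.49-fold (limma adjusted p = 0.00162) and Krt18 rose 1.58-fold (0.0479). Krt8 and Vil1 differed by -0.10 and -0.18 and did not pass (0.817 and 0.515). The mesenchymal gene Vim lay between 13.23 and 13.51, and the remaining 8 fibroblast markers lay below log2 4 on every array. Of 9 leukocyte markers 2, Csf1r and Cd14, were above it, and the summed linear intensity of the 9 was 1310 to 2570 in unstimulated cells, 878 to 2460 at 6 h and 518 to 952 in tolerant cells. These 2 moved in opposite directions from unstimulated to tolerant cells. Csf1r differed by -1.95 (limma adjusted p = 0.0232) and Cd14 by 0.53 without passing (0.192). All 5 endothelial markers lay below log2 4. Replicate 1 stood apart from replicates 2 and 3 in all 3 groups on the second principal component (30.9% of the variance). For beta-actin, the 3' control probe set minus the 5' one, a measure of RNA integrity and labelling, came to 0.40 to 0.72 (log2) for replicate 1 and to 1.02 to 1.38 for replicates 2 and 3. The same measure for Gapdh overlapped, at -0.20 to -0.06 for replicate 1 and -0.24 to -0.16 for replicates 2 and 3. Because replicate 1 stood apart on the component, results are also given from replicates 2 and 3 alone or with the replicate number as a block. The median log2 difference over all tested genes was -0.11 for 6 h LPS, -0.07 for tolerant against unstimulated cells and 0.01 for tolerant cells against 6 h LPS.

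The promoters of Mmp7 and Plaur are shown because both transcripts lay higher on the tolerant arrays and because these were the member promoters that held the AP-1 motif. The sequences are RefSeq's on GRCm38.p6, 250 bases up to the annotated transcript start, 5' to 3' on the plus strand. Capitals mark matches to the AP-1 motif TGANTCA, the ETS motif AGGAAG and the TATA box TATAAA, each searched on both strands.
Mmp7, chr9:7691840-7692089: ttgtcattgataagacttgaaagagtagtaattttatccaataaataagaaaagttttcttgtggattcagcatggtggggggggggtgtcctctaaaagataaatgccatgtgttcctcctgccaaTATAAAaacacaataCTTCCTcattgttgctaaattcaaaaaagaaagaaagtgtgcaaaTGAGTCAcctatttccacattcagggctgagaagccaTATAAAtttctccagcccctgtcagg
Plaur, chr7:24462233-24462482: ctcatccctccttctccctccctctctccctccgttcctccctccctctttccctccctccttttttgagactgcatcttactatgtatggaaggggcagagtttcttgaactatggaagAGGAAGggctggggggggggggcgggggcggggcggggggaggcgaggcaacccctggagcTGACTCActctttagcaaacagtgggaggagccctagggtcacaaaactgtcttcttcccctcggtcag
Counted from the transcript start, the AP-1 match began at -63 in Mmp7 and at -69 in Plaur. Mmp7 had an ETS match at -108 and TATA matches at -26 and -123, and Plaur an ETS match at -130. No marked match overlapped another.

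The search covered 8 promoter entries of 300 bases (250 before the start and 50 after it) for 7 members. Mmp7 has a second annotated start, and Plat and Plau were not among the promoter sequences used here. The annotated Plaur gene begins at base 24460937, upstream of its printed promoter, and no promoter at that position was searched. AP-1 is the binding motif of Fos and Jun proteins, and ETS motifs bind a family that includes Etv4 and Etv5. A member was counted once if any of its entries held a match, whereas the shares over all promoters count single entries. AP-1 matches stood in 2 of the 7 members, against 7.81% of all 32851 promoters of that length. ETS matches stood in 5 of the 7, against 35.4%. The TATA box stood in Mmp7 only, against 13.6%, and the kappa-B motif in none, against 1.2%. A match is a run of letters and was not tested as a binding site.

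**Figure D1:**
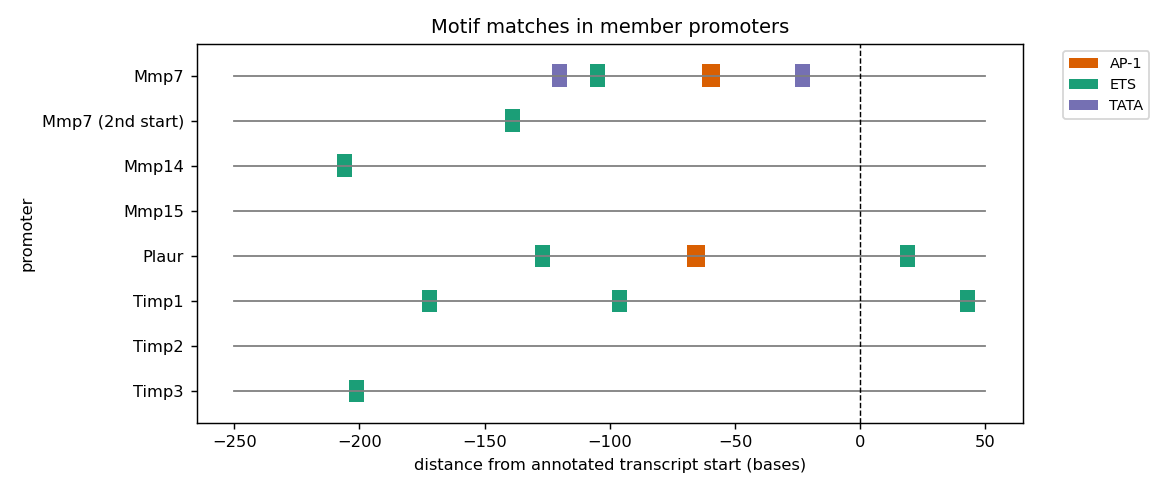
Position of motif matches (coloured boxes) in bases from the annotated transcript start (dashed line) for 8 promoter entries of 7 members. AP-1 matches appear in Mmp7 at -63 and in Plaur at -69, and the entries of Mmp15 and Timp2 hold no match.

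The secreted protease came first by size of difference. Mmp7 (probe set 1449478_at) read 4.11, 4.75 and 3.56 on the unstimulated arrays, 4.41, 4.74 and 5.33 at 6 h of LPS, and 8.48, 8.64 and 8.92 on the tolerant arrays. All 3 tolerant values thus lay far above the other 6, which overlapped each other and sat close to the level minimum, with unstimulated replicate 3 below it. The means were 4.14 ± 0.60, 4.83 ± 0.47 and 8.68 ± 0.22 (SD, n = 3). Tolerant cells were 23.3-fold above unstimulated cells and 14.4-fold above cells at 6 h. These values are a description, since Mmp7 was chosen for them, and carry no test.

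At 6 h of LPS, Mmp7 differed from unstimulated cells by 0.69 (95% interval -0.06 to 1.44; limma adjusted p = 0.25, and 0.122 with the replicate block). It was higher in 2 of 3 same-numbered pairs, with pair differences of 0.30, -0.01 and 1.78, so replicate 3 carried most of the mean.

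Mmp7 has a single probe set on the array, and the Paneth cell genes gave a further reading. Lyz1, Itln1, Ang4, Pla2g2a and Spink4, listed here as Paneth cell genes, lay below log2 4 on all 9 arrays. Of 20 listed Paneth cell genes 8 had a probe set and 3 were tested. The summed linear intensity of the 8 was 173 to 237 in unstimulated cells, 155 to 188 at 6 h and 233 to 319 in tolerant cells. Most of this sum came from Sox9 and Atg16l1, and Defa3 was at most 4.18 on any array. Sox9 lay at 7.04 to 7.56 on the tolerant arrays and at 6.12 to 6.36 on the others. The sum is thus no reading of the genes below log2 4. Sox9, a transcription factor gene of crypt and Paneth cells, rose 2.15-fold in tolerant cells (limma adjusted p = 0.00254), and Defa3 and Atg16l1 did not pass (adjusted p = 0.734 and 0.995).

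The membrane-type protease gene Mmp14, whose product sits on the cell surface and activates the precursor of Mmp2, read 2.56 to 2.64 on all 9 arrays with its highest probe set. Its other 2 probe sets read 2.44 to 2.63. These values lie at the low end of the array, where differences have no order, and no fold is given. The array thus registered Mmp7 but not Mmp14 above the minimum in any of the 3 groups.

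**Figure D2:**
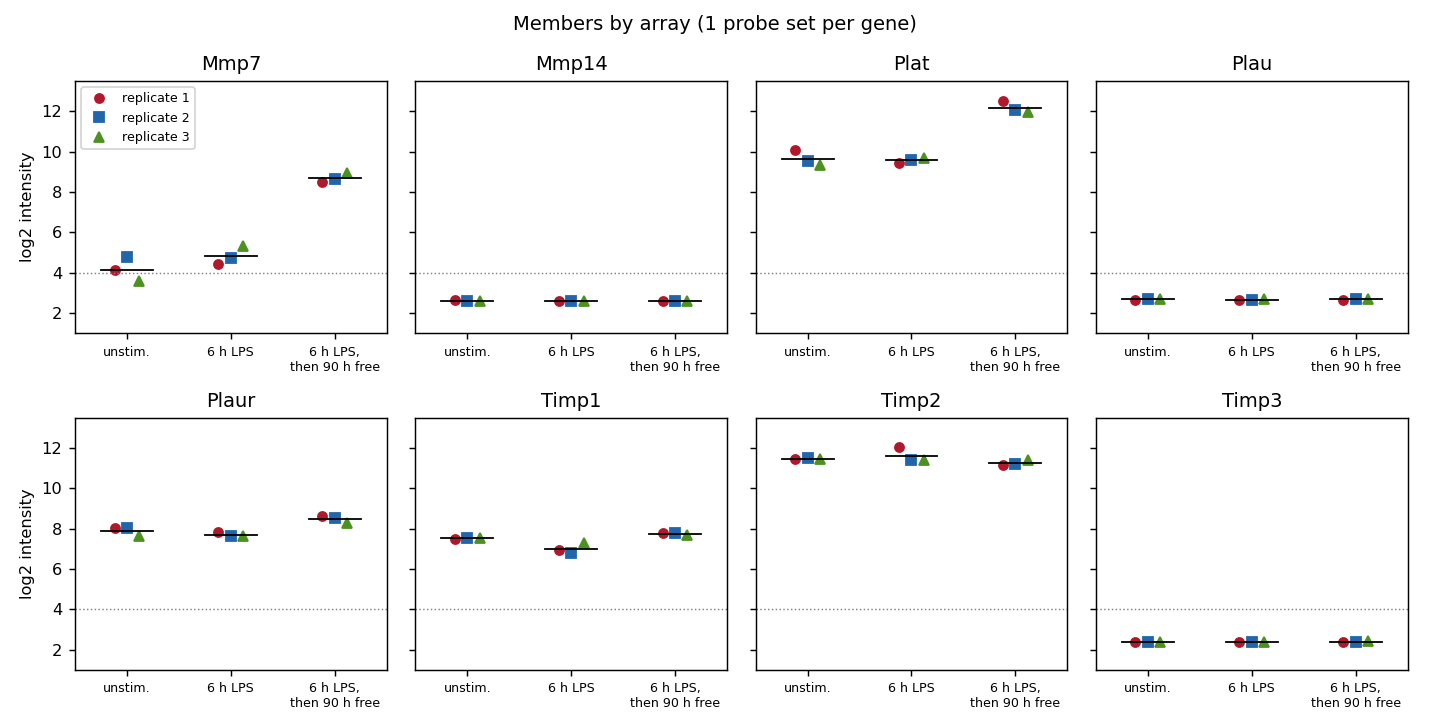
Log2 intensity (y axis) of 8 members on each array, with 1 probe set per gene, the group mean as a bar and the level minimum of log2 4 dotted. Mmp7 and Plat lie highest on the 3 tolerant arrays, and Mmp14, Plau and Timp3 lie below the minimum in every group.

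Of the plasminogen activators, Plat was measured above the minimum and lay highest in tolerant cells, and Plau was not. Plat (1415806_at) read 10.09, 9.54 and 9.34 in unstimulated cells, 9.44, 9.57 and 9.70 at 6 h, and 12.50, 12.08 and 11.97 in tolerant cells. The tolerant arrays again stood clear of the other 6, which overlapped. Tolerant cells were 5.77-fold above unstimulated cells and 6.11-fold above cells at 6 h, with pair differences of 2.41 to 2.63 and 2.26 to 3.06, again as a description with no test. At 6 h the difference from unstimulated cells was -0.08 (95% interval -0.61 to 0.44; limma adjusted p = 0.844). Its sign turned to 0.20 in replicates 2 and 3 alone, because replicate 1 of the unstimulated cells was the highest of the 6 arrays.

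A second Plat probe set reached log2 4 on a single array and read 2.84 to 4.03. Averaged with it, the tolerant difference fell to 1.46 against unstimulated cells. Plau, the urokinase gene, read 2.63 to 2.69 on all 9 arrays, and its other probe set 2.35 to 2.38.

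Plaur encodes the receptor that holds urokinase at the cell surface. Its probe set 1452521_a_at read 8.02, 8.02 and 7.65 in unstimulated cells, 7.81, 7.65 and 7.62 at 6 h, and 8.64, 8.50 and 8.28 in tolerant cells. The tolerant arrays did not overlap either other group. Plaur rose 1.49-fold from unstimulated to tolerant cells, a difference of 0.58 ± 0.17 (SE, limma adjusted p = 0.0366), and 1.72-fold from 6 h to tolerant cells, a difference of 0.78 ± 0.17 (adjusted p = 0.0183). It was higher in 3 of 3 pairs in both, by 0.48 to 0.63 and by 0.65 to 0.86.

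The rise of Plaur lay near the threshold. Against unstimulated cells the call was lost without any single unstimulated or tolerant array or without 6 h LPS replicate 2 (adjusted p 0.0325 to 0.115 over all 9 arrays left out in turn). Against 6 h it was lost without 6 h LPS replicate 2 or 3 or tolerant replicate 1 or 2 (0.0216 to 0.0713). It held in replicates 2 and 3 alone (0.0433 and 0.026) and with the block (0.00571 and 0.00238). At 6 h Plaur was lower than in unstimulated cells in 3 of 3 pairs, by a mean of -0.20 that did not pass (95% interval -0.59 to 0.19; adjusted p = 0.507).

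Of the inhibitors, Timp1 was lowest at 6 h and highest in tolerant cells. Timp1 (1460227_at), a secreted inhibitor gene, read 7.49, 7.52 and 7.53 in unstimulated cells, 6.94, 6.80 and 7.28 at 6 h, and 7.79, 7.78 and 7.66 in tolerant cells. No group overlapped another, with 6 h lowest and tolerant highest. From 6 h to tolerant cells Timp1 rose 1.67-fold, by 0.74 ± 0.16 (SE, limma adjusted p = 0.0176), in 3 of 3 pairs.

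The earlier step of Timp1, from unstimulated cells to 6 h, was -0.51 (95% interval -0.87 to -0.14), lower in 3 of 3 pairs. It did not pass (adjusted p = 0.131) but passed with the block (0.0425) and without 6 h LPS replicate 3 (0.0431). Tolerant against unstimulated cells differed by 0.23 (95% interval -0.13 to 0.60; adjusted p = 0.325). The call between 6 h and tolerant cells was lost without 6 h LPS replicate 2 or any tolerant array (0.0107 to 0.0713) and held in replicates 2 and 3 alone (0.0421).

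**Figure D3:**
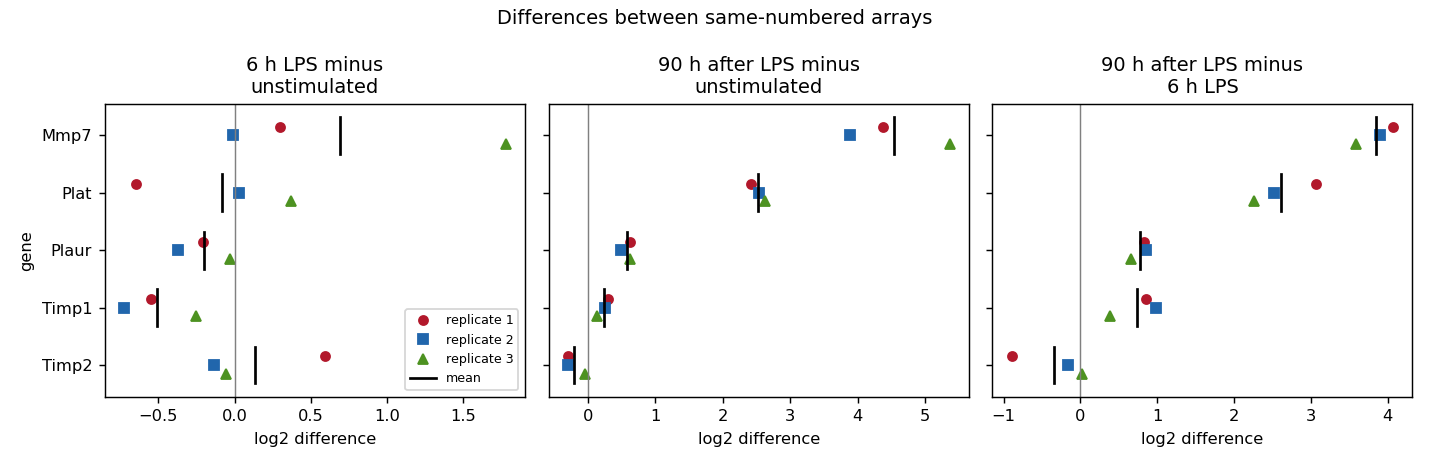
Log2 differences between same-numbered arrays (points; tolerant is 90 h after LPS) and their mean (bars) for the 5 tested members, with a different x scale in each panel. Mmp7, Plat and Plaur lie right of 0 in every tolerant pair, and Timp1 lies left of 0 in every pair at 6 h and right of 0 in every tolerant pair.

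Timp2 encodes the inhibitor that also takes part in activating the Mmp2 precursor together with the Mmp14 product. Its main probe set, 1454677_at, read 11.47, 11.51 and 11.44 in unstimulated cells, 12.07, 11.38 and 11.38 at 6 h, and 11.17, 11.22 and 11.40 in tolerant cells. Replicate 1 at 6 h stood above all others, and the tolerant arrays lay just below the unstimulated ones. No comparison passed, with a tolerant difference of -0.21 (95% interval -0.68 to 0.25; limma adjusted p = 0.488).

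The probe sets of Timp2 disagreed. Of its 6 probe sets 5 lay above log2 4 on every array. On 1433662_s_at, 1460287_at, 1450040_at and 1420924_at, replicate 1 exceeded the mean of replicates 2 and 3 by 0.73 to 2.26 in every group, whereas on 1454677_at this gap was -0.14 to 0.69. The replicate 1 arrays are also those with the smaller 3' to 5' difference of beta-actin, though that of Gapdh did not set them apart. The part of RNA integrity in this gap was not tested.

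Within same-numbered pairs, 1460287_at was lower at 6 h by -0.69, -0.61 and -0.32 and higher from 6 h to tolerant by 1.01, 0.72 and 0.53. With every probe set fitted as its own feature these did not pass without the block (limma adjusted p = 0.451 and 0.292) and passed with it (0.0409 and 0.00626). On 1433662_s_at the pairs from 6 h to tolerant lay at -0.24, -0.22 and -0.27, the opposite sign. In tolerant against unstimulated cells 1460287_at was 0.21 higher, and the other 4 were lower in 3 of 3 pairs, by means of -0.21 to -0.58. None of the 5 passed without the block. With it 1433662_s_at, at -0.37, and 1450040_at, at -0.58, passed (adjusted p = 0.0415 and 0.0179). The probe sets thus gave no common direction.

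**Figure D4:**
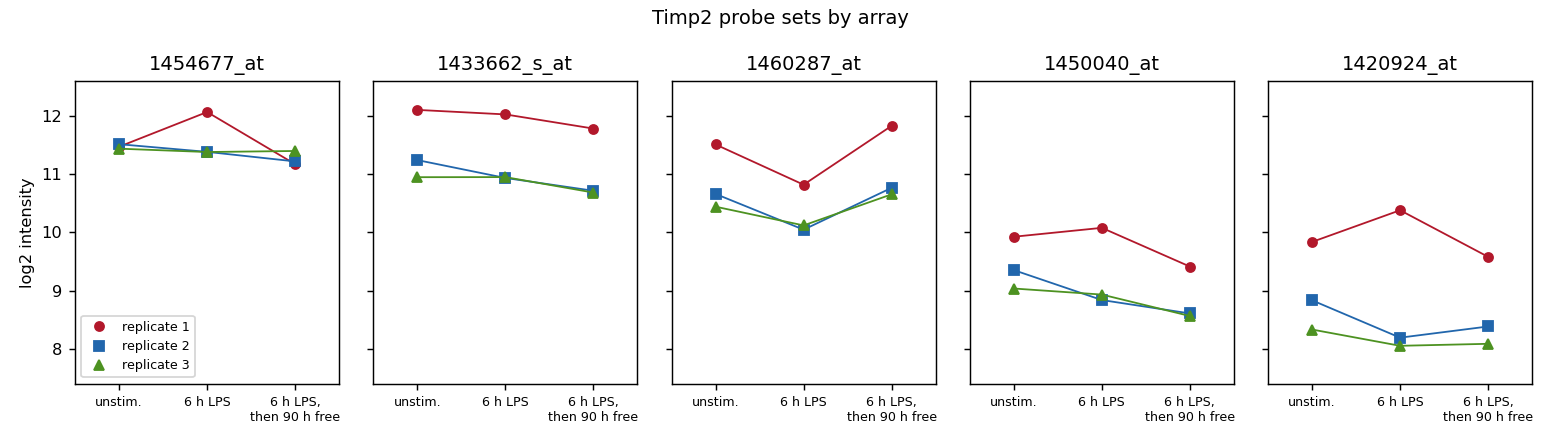
Log2 intensity (y axis) of 5 Timp2 probe sets by group, with lines that join arrays of one replicate number. Replicate 1 runs above the others in every group on all panels but that of 1454677_at, and 1460287_at dips at 6 h.

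Timp3, whose product stays bound to the matrix, read 2.37 to 2.40 on all 9 arrays with its highest probe set and no higher on its other 3. Timp1 and Timp2 were thus the inhibitor transcripts measured above the minimum.

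Counted together, none of the 5 tested members was called by limma at 6 h of LPS (1 at an unadjusted p under 0.05), where 0.0636% of all tested genes were called, all of them higher. From replicates 2 and 3 alone none was called either, against 0.0848% of all. With the replicate block 1 of 5, Timp1, was called, against 24% of all tested genes. Of the 5, 1 had groups at 6 h that did not overlap, against 26.1% of all. In tolerant against unstimulated cells 3 of 5 were called, all higher, against 26.2% in either direction and 14% higher, and 5 of 5 did not overlap, against 47.1%. In tolerant cells against 6 h 4 of 5 were called, all higher, against 13.1% in either direction and 7.1% higher, and 4 of 5 did not overlap, against 31.3%. Mmp7 and Plat are in these counts and were chosen for it, so nothing is read from them. The median differences of the 5 were -0.08, 0.58 and 0.78.

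The other genes of protease control, 108 listed by role beside the members, gave 43 tested genes. None was called by limma at 6 h (9 at an unadjusted p under 0.05), and with the replicate block 7 were higher and 3 lower, against 11.6% and 12.5% of all genes. In tolerant against unstimulated cells 9 of the 43 rose and 4 fell, against 14% and 12.2% of all tested genes. With the block 19 rose and 7 fell, against 22.7% and 25.9% of all (48.6% together). From replicates 2 and 3 alone 16 rose and 6 fell, against 18.5% and 19.7% (38.3% together). The median difference was 0.25, beside -0.07 over all tested genes. In tolerant cells against 6 h 8 rose and 3 fell, against 7.1% and 6.02% of all. With the block 15 rose and 5 fell, against 16% and 15.7% (31.7% together), and from replicates 2 and 3 alone 13 and 3, against 11.2% and 11.4% (22.5% together). The 8 were Fos, Fosl1, Etv4, Etv5, Hbegf, Itgav, Serpinb8 and Spint1, and the 3 were Adam12, Adamts1 and Tcf7l2. Adam12 lay below log2 4 on all tolerant arrays. With values under log2 4 raised to 4, the genes called lower numbered 2 instead of 3. Leaving out single arrays kept the call of Itgav and of Etv4 in 2 of 9 cases each, of Spint1 in 4 and of Etv5 in 5, and that of the other 7 in all 9. For Itgav the call held only without unstimulated replicate 1 or 6 h LPS replicate 2, and for Etv4 only without replicate 1 of unstimulated or 6 h LPS cells.

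Other metalloproteinases were nearly all below the minimum. Of 20 listed, 16 had a probe set and Mmp11, a stromelysin, was the single one tested. It was 0.76 lower in tolerant than in unstimulated cells without passing (limma adjusted p = 0.0871, and 0.0251 with the block). Mmp2, Mmp3, Mmp9, Mmp10 and Mmp13 were at most 3.33 on any array. Of 11 inhibitors and activators of metalloproteinases 2 were tested. Furin, a protease that removes propeptides, and Bsg, an inducer of metalloproteinases, differed by -0.53 and -0.05 and did not pass (adjusted p = 0.246 and 0.91), though Furin passed with the block (0.00844).

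On the plasmin side, Plg itself, the gene of plasminogen, was at most 2.21 on any array. Of 15 genes of plasminogen and its receptors 8 were tested, and 2 rose in tolerant against unstimulated cells, against 14% of all tested genes. Itgav, an integrin subunit that binds vitronectin, rose 2.66-fold (limma adjusted p = 0.00313), and Itgb1, the common beta integrin subunit, 2.05-fold (0.00982). Itga3 and Igf2r, genes of an integrin partner of the urokinase receptor and of a plasminogen-binding receptor, were higher by 1.12 and 0.35 without passing (0.208 and 0.569). Itga3 passed with the block (0.0016). So did Anxa2, gene of a plasminogen-binding annexin, which was 0.34 higher (0.21 without the block, 0.0463 with it). Itgav and Itgb1 were higher by 0.43 to 1.88 and by 0.17 to 1.03 over their probe sets above the minimum.

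Serpins that block plasminogen activators or plasmin were mostly not measured. Of 10 listed 7 had a probe set and 2 were tested. Serpinb8, an intracellular serpin, was 0.55 higher in tolerant than in unstimulated cells without passing (limma adjusted p = 0.0882, and 0.0337 with the block) and rose 2.32-fold from 6 h to tolerant cells (0.00664). Serpinb6a differed by 0.21 and did not pass (0.357). It belongs to a cluster of similar genes that the probes may not separate.

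Membrane and secreted serine proteases of epithelium and their inhibitors had 4 of 9 genes tested. None was called by limma in tolerant against unstimulated cells (2 at an unadjusted p under 0.05), against 26.2% of all tested genes. Spint1 and Spint2 encode Kunitz inhibitors of matriptase and hepsin. They were higher by 0.97 and 0.62 (limma adjusted p = 0.0626 and 0.0506) and passed with the block (0.00116 and 0.00555). Spint1 rose 2.64-fold from 6 h to tolerant cells (0.0265), a call lost without 6 h LPS replicate 2 or 3 or any tolerant array (up to 0.0895). Klk1, from a family of near-identical kallikrein genes, was lower by -0.79 and Htra1 higher by 0.04, and neither passed (0.24 and 0.926). The block brought Klk1 to 0.025.

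ADAM and ADAMTS proteases, which shed surface proteins or cut proteoglycans, moved both ways. Of 12 listed 7 were tested, and in tolerant against unstimulated cells 1 rose and 2 fell, against 14% and 12.2% of all tested genes. Adam9 rose 1.65-fold (limma adjusted p = 0.0171), a call lost without unstimulated or tolerant replicate 2 (up to 0.0724). Adamts1, an aggrecan-cutting protease gene, fell 1.7-fold (0.00783). Adam12 fell at least 1.28-fold, with all tolerant arrays below log2 4. Its limma adjusted p (0.00633) belongs to the full difference of -1.60, which includes values below that level. With values under log2 4 raised to 4, the pathway genes called lower numbered 3 instead of 4. Adam10, the main sheddase of E-cadherin and Notch, was 0.78 higher without passing (0.0654, and 0.00273 with the block), and Adamts5, another aggrecan-cutting protease gene, 0.60 higher (0.0895, and 0.0226 with the block).

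Of 12 genes of proteins known to be cut by Mmp7, 3 were tested. Hbegf, which encodes a membrane-anchored growth factor released by proteases, rose 5.13-fold in tolerant against unstimulated cells, from 7.50 ± 0.84 to 9.86 ± 0.56 (SD, n = 3; limma adjusted p = 0.00662). Sdc1, a heparan sulphate proteoglycan gene, and Igfbp5 differed by 0.04 and 0.02 and did not pass (0.952 and 0.968). Cdh1, Fasl and Tnf lay below log2 4 on all arrays.

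The transcription factor list held 19 genes with 16 tested. Of these, 5 rose and 2 fell in tolerant against unstimulated cells, against 14% and 12.2% of all tested genes. Fos, an AP-1 subunit gene, rose 10.4-fold, from 5.54 ± 0.54 to 8.92 ± 0.50 (SD, n = 3; limma adjusted p = 0.00193). Fosl1, another AP-1 subunit gene, rose 2.54-fold (0.0292), and the ETS genes Etv4 and Etv5 rose 3.8-fold (0.0161) and 3.09-fold (0.0434). The calls of Fosl1, Etv4 and Etv5 were lost without unstimulated replicate 2, and those of Fosl1 and Etv5 also without unstimulated replicate 3 or tolerant replicate 1 or 2. Etv5 lost it too without 6 h LPS replicate 2 or 3. Adjusted p-values then reached 0.0902, 0.0619 and 0.132. Ets1 rose 1.64-fold (0.0223), and Tcf7l2 and Stat3 fell 2.12-fold (0.0179) and 1.61-fold (0.0476). Ets1 lost its call without unstimulated replicate 1 or 3 or tolerant replicate 2 or 3 (up to 0.0945). Tcf7l2 lost it without unstimulated replicate 2 or tolerant replicate 1 or 3 (0.072), and Stat3 without any unstimulated array, 6 h LPS replicate 3 or tolerant replicate 2 or 3 (0.147). Fos kept it in all 9 cases. Of the other AP-1 subunit genes, Junb was 2.06 higher, in 3 of 3 pairs, without passing (0.067), and passed with the block (6.22e-05) and in replicates 2 and 3 alone (0.00422). Jun, Jund and Fosl2 differed by 0.21, -0.35 and -0.39 and passed neither way. Second probe sets that reached log2 4 on at least 3 arrays had the opposite sign for Jun (-0.41) and Fosl2 (0.55). For Stat3 such a probe set gave a smaller fall (-0.22). For Fosl1, Ets1 and Tcf7l2 the second probe set kept the sign, at 1.83, 0.78 and -1.32. Sp1 and Elf3 were 0.70 and 0.44 higher without passing (0.0898 and 0.547) and passed with the block (0.00239 and 0.0208). With the block 8 of the 16 were higher and 2 lower, against 22.7% and 25.9% of all. At 6 h of LPS limma called none of the 16 (1 at an unadjusted p under 0.05), against 0.0636% of all.

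**Figure D5:**
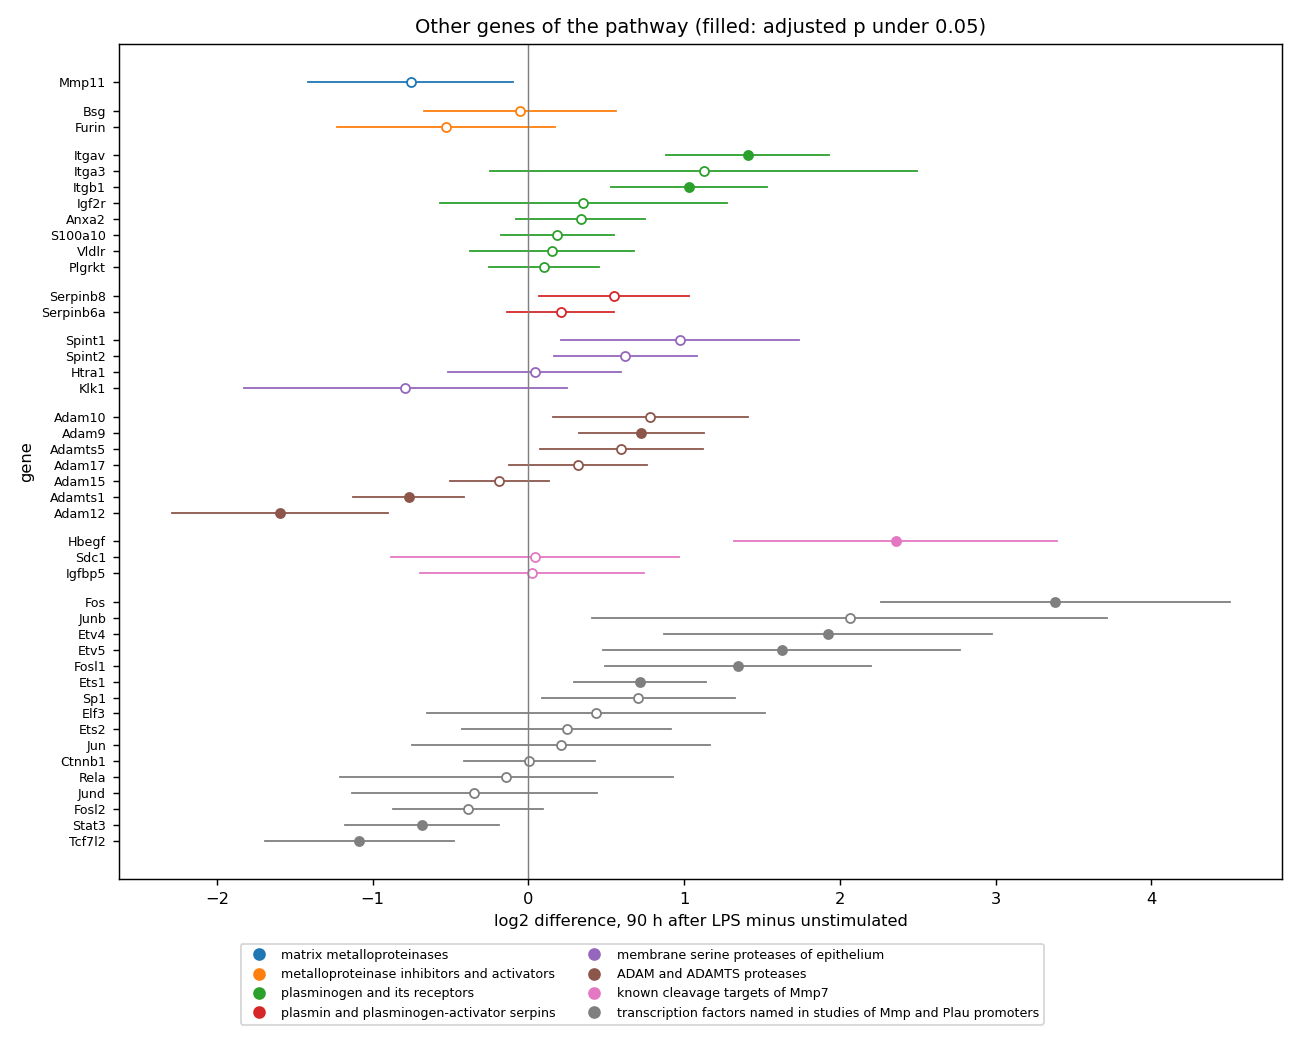
Log2 difference (x axis) of 43 other pathway genes in tolerant cells (90 h after LPS) against unstimulated cells with its 95% interval, grouped by list, filled where adjusted p passed. Fos, Hbegf and Etv4 are the called genes farthest right, and Adam12 the one farthest left.

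The genes whose mean-centred profile over the 9 arrays lay closest to that of Mmp7 were Il24, a cytokine gene, Nlrp10, Uox, the urate oxidase gene, and Tnnt2, a troponin gene. Their root mean square difference from it was 0.39, 0.50, 0.51 and 0.53 (log2), against a median of 2.07 over all tested genes compared. Closest to Plat were Fhl2, an adaptor gene, Rnd1, Stbd1 and Nrarp, a Notch-response gene, at 0.17, 0.23, 0.24 and 0.25, against a median of 1.28. Each of these 8 had a higher mean in tolerant cells than in both other groups, which follows from how they were picked. In both other groups the means of Il24, Nlrp10, Rnd1 and Stbd1 lay below log2 4. A gene flat over the arrays would lie at 2.03 from Mmp7 and at 1.23 from Plat, near those medians. The profiles share the same 9 arrays, and this likeness is a description.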

How the data were processed

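RNA of m-ICcl2 cells was hybridised to 9 Affymetrix mouse arrays, 3 per condition. The deposited values are intensity on a linear scale, 1 per probe set and array, made by the authors by GCRMA (named in the submitters' processing notes, version not given in the sources used here). This method removes a background estimated from probe sequence, and low values crowd near a floor (lowest value per array 2.22 to 2.25). The platform annotation gave 1 gene symbol to 34945 of 45101 probe sets, several to 932 and none to 9160, with 64 controls. Arrays give no read depth, and their number limits the precision.

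Values were turned into log2 here with no pseudocount. The probe set of highest mean stood for its gene. Testing required log2 4 on any 3 arrays (51.8% of genes), so a gene low in 2 groups entered only by being high in the third. The test was limma 3.58.1 in R 4.3.3 (lmFit with a mean per group over all 9 arrays, 6 residual degrees of freedom, eBayes without trend, two-sided, Benjamini-Hochberg over all tested genes, threshold 0.05). The steps were tested on simulated data. Where no array of the lower group reached log2 4, the fold was taken against log2 4 as a lower bound. The p-value beside such a fold still came from the values as measured. The labels call the arrays biological replicates without naming separate cultures, so p-values set each mean difference against the spread between these arrays.

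The members and lists were chosen with earlier results of these data known. All members were named. Of each list at most 4 tested genes were named, called genes first, by size of change in tolerant against unstimulated cells, and 4 genes of closest profile for Mmp7 and Plat. Genes named for lying below the minimum, the cell markers, and Adamts5, Anxa2, Elf3, Ets1, Fosl2, Jun, Junb, Jund, Sp1, Stat3 and Tcf7l2 fall outside that rule and were chosen after their values were seen. Groups carry replicate numbers 1 to 3. Deviations from group means correlated at 0.737 to 0.844 in pairs of replicate 1. In same-numbered pairs of replicates 2 and 3 they correlated at 0.157 to 0.677. These values met the rule for pairing (over 0.1 in each). Arrays of replicates 2 and 3 correlated at 0.214 to 0.731 across numbers, and those of replicate 1 with the others at -0.743 to -0.375. The correlations thus set replicate 1 apart and do not show that replicates 2 and 3 are paired by number. Blocked values are given where they change a call of a member, or of a pathway gene in tolerant against unstimulated cells. For the other comparisons of pathway genes they are given as counts, and for single genes only among the results flagged below. Alternatives covered the filter, the probe-set rule, normalization, a floor, eBayes settings, array weights, separate fits, the block, replicates 2 and 3 alone and each array left out. Fitting every probe set as its own feature was added after seeing the data.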

Additional observations from a re-analysis of the deposited data

Results flagged for a closer look

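Among the 46 tested members and pathway genes searched (Mmp7 and Plat left out), 6 genes, relative to unstimulated cells, moved one way in every same-numbered pair at 6 h of LPS and the other way in every pair of tolerant cells, and the difference between the times passed limma's test. Over all tested genes, 313 of 9431 (3.32%) met the same conditions, among them the epithelial marker Krt18. Plaur differed by 0.78 between tolerant cells and 6 h (limma adjusted p = 0.0183), and Timp1 by 0.74 (0.0176). Both lay below unstimulated cells at 6 h and above them when tolerant. The same order held for Serpinb8, with a difference of 1.21 (0.00664), Spint1, with 1.40 (0.0265), and Etv5, with 2.12 (0.0255). Adamts1 showed the opposite order, with a difference of -1.23 (0.00148). Without the replicate block neither step from unstimulated cells passed for Timp1, Serpinb8 and Spint1. For Plaur, Etv5 and Adamts1 the tolerant step passed, but the step to 6 h did not (limma adjusted p = 0.507, 0.585 and 0.142). With the block, Timp1 passed at 6 h (adjusted p = 0.0425), Serpinb8 at both times (0.0382 and 0.0337) and Spint1 in tolerant cells (0.00116). At 6 h the block brought Adamts1 to 0.0432, while Plaur and Etv5 still did not pass (0.229 and 0.102).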

How the results depend on the processing

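The differences of Mmp7 and Plat in tolerant cells kept their sign under all settings run. Averaging all probe sets moved Plat to 1.46 against unstimulated cells and 1.42 against 6 h. Plaur and Timp1 were higher in tolerant cells under every setting, but the call of Plaur against unstimulated cells was lost with the probe set of largest variance per gene (limma adjusted p = 0.0593), and that of Timp1 against 6 h in a fit of those 2 groups alone (0.0539). Without 1 array at a time, the members called numbered 0 to 1 at 6 h, 2 to 3 in tolerant against unstimulated cells and 2 to 4 against 6 h.

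With the replicate block, 2267 genes, 1 member (Timp1) and 10 pathway genes were called at 6 h, 4586 genes and 26 pathway genes in tolerant against unstimulated cells, and 2985 and 20 against 6 h. The block changed no other member's call. Array weights gave 1557 genes, 1 member and 7 pathway genes at 6 h, 5589 genes and 28 pathway genes in tolerant against unstimulated cells, and 2385 genes against 6 h. Replicates 2 and 3 alone gave 22 pathway genes in tolerant against unstimulated cells and 2126 genes against 6 h. Without the level filter 37 genes were called at 6 h, and 8 and 7 pathway genes in the other comparisons. Averaged probe sets gave 14 genes at 6 h. Without 1 array at a time, counts ran from 5 to 696 genes and 0 to 1 pathway genes at 6 h (the highest without 6 h LPS replicate 3), from 1400 to 2908 genes and 7 to 17 pathway genes in tolerant against unstimulated cells, and from 677 to 1282 and 7 to 11 against 6 h. The lowest gene count in both tolerant comparisons came without tolerant replicate 2. The cause was not tested.

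Signs turned only for differences that were not called. Plat at 6 h was 0.045 with averaged probe sets, 0.20 in replicates 2 and 3, 0.078 with array weights and -0.24 to 0.13 without 1 array. Timp2 at 6 h was -0.14 with averaged probe sets, -0.13 with the probe set of largest variance, -0.095 in replicates 2 and 3, -0.053 with array weights and -0.093 to 0.25 without 1 array. By probe set it was -0.13 on 1420924_at and 1433662_s_at, -0.16 on 1450040_at and -0.54 on 1460287_at, and the last gave 0.21 in tolerant against unstimulated cells and 0.75 against 6 h. In tolerant against unstimulated cells 1420924_at, 1433662_s_at and 1450040_at kept the negative sign, at -0.32, -0.37 and -0.58, the last 2 passing with the replicate block (0.0415 and 0.0179). Signal near the array's floor limits Mmp14, Plau, Timp3 and Mmp7 before tolerance.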
